A study of Mus musculus with 3 samples.

Results

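Resident tissue macrophages of the mouse pancreas were selected from droplet single-cell libraries by their transcripts. A cell barcode was taken as a member when it held at least 1000 unique molecular identifiers (UMIs) with at most 30% from mitochondrial genes, and when C1qa, C1qb and C1qc summed to at least 5 UMIs and Pf4, Folr2, Mrc1, Lyve1 and Fcrls to at least 3. Barcodes with any Arg1 UMI, with 5 or more UMIs of Ccl5, Cxcl9 and Nos2 together, with 2 or more of the large peritoneal macrophage genes Gata6, Prg4, Selp, Alox15 and Icam2, or with any Cd79a, Cd3e or Cd3d UMI were left out. Of 14302 barcodes within the limits, 879 were members. They numbered 639 of 5249 in the PBS library, 169 of 4879 in the 3-day WGP library and 71 of 4174 in the 7-day WGP library.

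The study asked how a particulate yeast β-glucan changes the immune cells of the pancreas. WGP, whole glucan particles of Saccharomyces cerevisiae, is a hollow shell of β-glucan that phagocytes ingest. Young adult C57BL/6 mice were given PBS or WGP into the peritoneal cavity, and living CD45+ cells, that is leukocytes, were sorted from the pancreas 3 or 7 days after WGP. Each of the 3 groups was 1 library, so no difference has a replicate check, no test was run, and every interval given is a 95% interval for counting error only. Mice of both sexes were used in the study, and the labels give neither the number nor the sex of the mice behind a library.

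Resident macrophages live within a tissue, are kept up largely by local division and slow replacement from blood monocytes, and clear dying cells, lipids, iron and debris. In many organs they are known by the scavenger receptor CD163, the mannose receptor Mrc1, the folate receptor Folr2 and the hyaluronan receptor Lyve1, and by the transcription factor Maf. In the exocrine pancreas they lie among acinar cells and in the connective tissue between lobules, and in the islets they touch β-cells and vessels. Monocyte-derived macrophages enter after a stimulus and at first carry Ly6c2, Plac8 and inflammatory transcripts.

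The rule drew on measured transcripts, so the levels of its genes are a description. The members had median C1q sums of 141, 88 and 80 UMIs and median sums of the Pf4 to Fcrls group of 43, 15 and 8 UMIs in PBS, 3-day WGP and 7-day WGP. Just inside the limit on that group, at 3 or 4 UMIs, were 29, 19 and 19 members, and just outside it, at 1 or 2 UMIs and passing the other clauses, were 33, 31 and 41 barcodes. At the C1q limit, 12, 2 and 2 members had 5 or 6 UMIs and 9, 3 and 2 barcodes had 3 or 4. Among B-cell barcodes, which should lack C1q, 1.12%, 1.87% and 2.16% reached 5 C1q UMIs. The Arg1 clause alone kept out 5, 128 and 29 barcodes, the clause on Ccl5, Cxcl9 and Nos2 alone 14, 17 and 32, and the peritoneal clause alone 22, 6 and 0. No member barcode was shared between libraries, though 1 PBS member had a barcode that also held a non-member in the 3-day WGP library.

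The members were sequenced to similar depth, with medians of 10306, 10608 and 10502 UMIs a cell, against 5094, 5568 and 8014 in the other barcodes. Their UMIs summed to 7027322 in PBS, 1924842 at 3 days and 788344 at 7 days, so that 1 UMI was worth 0.142, 0.520 and 1.27 counts in 1000000 (CPM). Levels are given as CPM of these sums, and where 3 values follow each other they are in the order PBS, 3-day WGP and 7-day WGP. The 3 libraries together held from 48219246 to 56849043 UMIs each.

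Summed over the members of each library, resident macrophage markers that the rule did not use were higher than in the other barcodes. Over the 3 libraries, the 15 genes that most set the members apart from all other barcodes held 5 of the rule's own genes and 10 others: Cbr2, Stab1, Retnla, Gas6, Dab2, Mgl2, Ms4a7, Ccl8, Selenop and Cd163. Cd163, the haemoglobin scavenger receptor, stood at 268 CPM in PBS members and 9.66 CPM in other PBS barcodes, and at 67.2 and 1.42 CPM at 7 days. Stab1, a receptor for modified lipoproteins and dying cells, stood at 906 CPM in PBS members and 21.5 CPM in the other PBS barcodes. Retnla, a secreted product of alternatively activated macrophages, stood at 1940.4 and 197 CPM. Not every member carried them. The median PBS member held 0 UMIs of Retnla, Ccl8 and Cd163, and the median 7-day member also 0 of Cbr2, Gas6, Mgl2 and Ms4a7. Counting all UMIs, Cd163 was seen in 46.6% of PBS and 22.5% of 7-day members. These values describe the selected cells and were not tested, since the same cells were chosen by transcripts.

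Markers of most other cell types were low. Monocyte genes and acinar transcripts, described below, were not. The 15 monocyte genes summed to 2198, 4029 and 5934 CPM in PBS, 3-day WGP and 7-day WGP members. The 16 acinar and islet genes summed to 1740, 559 and 372 CPM. The 9 T and NK markers summed to 1.28, 1.56 and 7.61 CPM in PBS, 3-day WGP and 7-day WGP members. The 8 dendritic cell markers summed to 84.8, 33.8 and 58.4 CPM and the 8 endothelial and fibroblast markers to 58.9, 8.83 and 14.0 CPM. The 8 B-cell markers summed to 494, 283 and 232 CPM, most of it Ighm at 458, 268 and 204 CPM, while Ms4a1 was at 0 in both WGP groups. The 7 neutrophil markers summed to 147, 353 and 180.1 CPM, with Ly6g at 0 UMIs in all 3 groups, which allows up to 0.427, 1.56 and 3.81 CPM. The 5 erythroid markers summed to 50.7, 41.0 and 92.6 CPM, with Alas2 at 0 in all 3 groups.

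The sex of the animals was visible in the RNA and moved with the groups. Xist is made from the inactive X chromosome of female cells, and Ddx3y, Eif2s3y, Kdm5d and Uty lie on chromosome Y. Of the PBS members, 623 held Xist and no chromosome Y transcript, 1 held the reverse and 15 held neither. The 3-day WGP members split into 32 Xist and 92 Y barcodes, with 2 holding both kinds and 43 neither, and the 7-day WGP members into 42 Xist and 12 Y barcodes, with 2 and 15. Yet Y barcodes of all cell types numbered 1736 in PBS, 2510 at 3 days and 1865 at 7 days. Of C1q-positive barcodes without Cd79a or Cd3, only 8 in the PBS library were Y barcodes, against 718 with Xist. The PBS members thus held almost only Xist. Sex, the animal and its exposure to WGP cannot be told apart within a library, and values in Xist barcodes alone are given beside calls that they change.

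Resident macrophages made up a smaller share of the leukocytes after WGP. They were 12.2% (11.3 to 13.1, exact binomial interval) of barcodes in PBS, 3.46% (2.97 to 4.02) at 3 days and 1.70% (1.33 to 2.14) at 7 days. The share was 3.51-fold lower at 3 days, a log2 ratio of −1.81 (−2.05 to −1.58), and 7.16-fold lower at 7 days, a log2 ratio of −2.84 (−3.19 to −2.49). None of these intervals overlapped. A share also falls when other leukocytes enter, and the number of cells per pancreas was not analysed here.

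**Figure D1:**
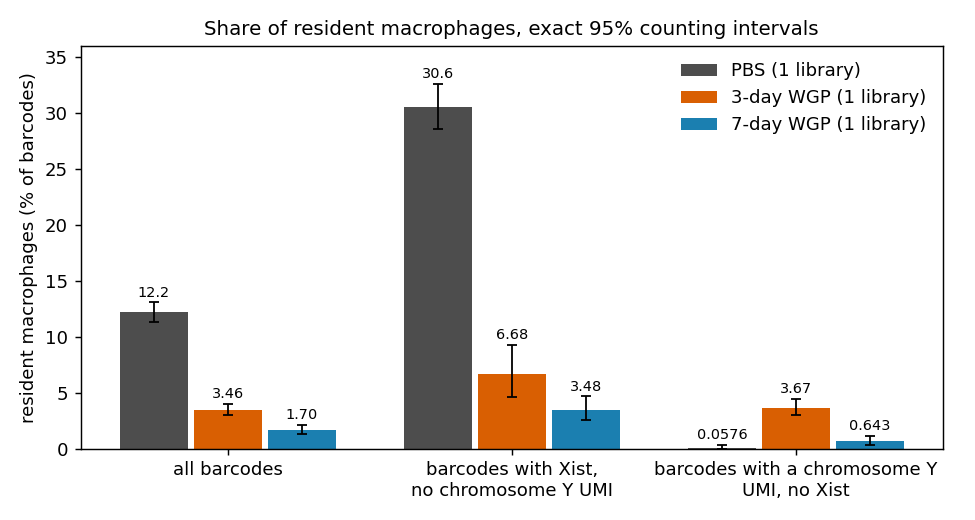
Bars show resident macrophages as a percentage of 3 denominators (all barcodes within limits, Xist barcodes and Y barcodes) in the PBS, 3-day WGP and 7-day WGP libraries, 1 library each, with exact 95% binomial intervals for counting error. Among all barcodes and among Xist barcodes the share is lower in 3-day than in PBS and lower in 7-day than in 3-day. Among Y barcodes it is lowest in PBS, at 0.0576%, with 3.67% in 3-day and 0.643% in 7-day.

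Within the macrophages themselves the balance moved the same way. Of C1q-positive barcodes without Cd79a or Cd3, members were 84.2% (81.4 to 86.7) in PBS, 29.7% (26.0 to 33.6) at 3 days and 9.28% (7.32 to 11.6) at 7 days. Among Xist barcodes of all cell types they were 30.6%, 6.68% and 3.48%, and among C1q-positive Xist barcodes 86.8%, 48.5% and 14.1%. Among Y barcodes they were 1 of 1736 in PBS, 3.67% at 3 days and 0.643% at 7 days, so that in Y barcodes the PBS share was the lowest. The size of the difference depended on the rule. With the Arg1, Ccl5, Cxcl9 and Nos2 clauses dropped, the log2 ratios were −0.81 at 3 days and −1.40 at 7 days, with Arg1-bearing macrophages then counted as members.

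To compare transcripts, log2 ratios of (CPM + 10) were taken against PBS for the 5829 genes with a mean of at least 20 CPM over the 3 sums, and a gene is said to have risen or fallen when the ratio was at least 1 in size. At 3 days 130 genes (2.23%) rose and 69 (1.18%) fell. At 7 days 164 (2.81%) rose and 150 (2.57%) fell. The counts given below for each gene list are to be set beside these shares of all tested genes. The median ratio over all genes was 0.02 at 3 days and close to 0 at 7 days. The WGP groups share the PBS library, so that the ratios at 3 and 7 days are not independent. In bulk sums, fewer cells carrying a transcript and less of it per cell cannot be told apart.

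The identity genes that the rule did not use were mostly within 2-fold of PBS at 3 days and lower at 7 days. Of 19 tested, 0 rose and 1 fell at 3 days, and 0 rose and 12 fell at 7 days, with median log2 ratios of −0.29 and −1.37, against 1.18% of all tested genes that fell at 3 days and 2.57% at 7 days. The gene that fell at 3 days was Hpgd, which breaks down prostaglandins, at 400.2 CPM in PBS, 139.8 CPM at 3 days and 108 CPM at 7 days. Cd163 was at 268 CPM (256 to 280.2) in PBS, 217 CPM (196 to 238) at 3 days and 67.2 CPM (50.4 to 87.9) at 7 days, log2 ratios of −0.29 and −1.85. Its 7-day interval lay below the other 2. Cd209f, a lectin of the DC-SIGN family, was at 175 CPM in PBS, 119 CPM at 3 days and 22.8 CPM at 7 days, a log2 ratio of −2.49 at 7 days, and Fcna, a ficolin that opens the lectin pathway of complement, at 281 CPM in PBS, 340.3 CPM at 3 days and 71.0 CPM at 7 days, a ratio of −1.85.

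**Figure D2:**
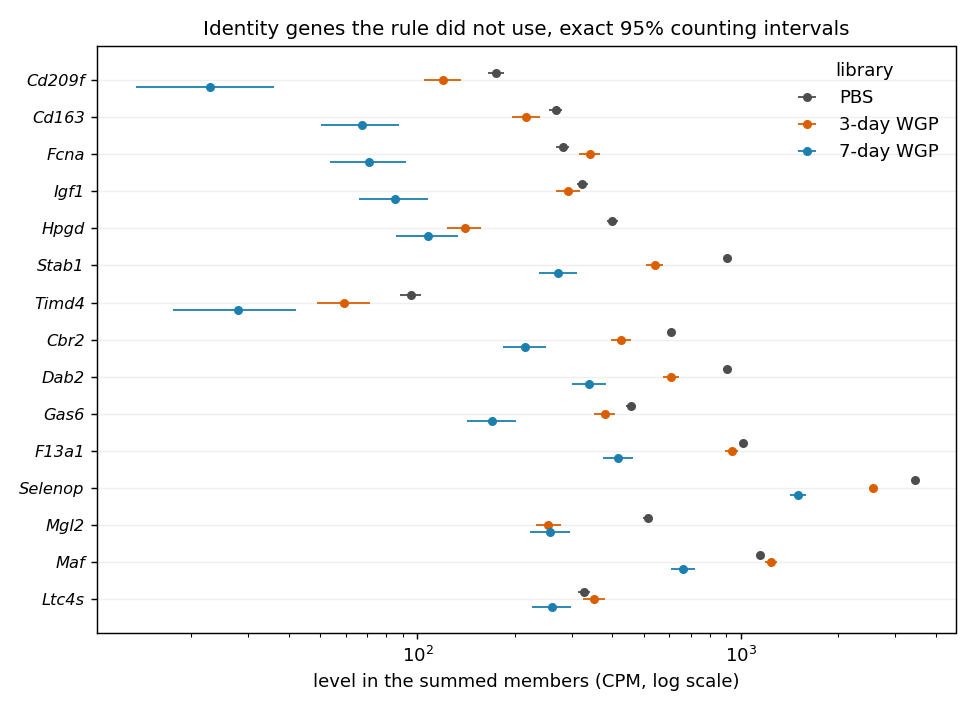
Points give the levels of the identity genes named in the text in the summed members (CPM, log axis) of the PBS, 3-day WGP and 7-day WGP libraries, with exact 95% Poisson intervals for counting error. For most genes the PBS and 3-day points lie close together and the 7-day point lies to their left, as for Cd163 at 268, 217 and 67.2 CPM.

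Receptors and bridging molecules for dying cells were among those that fell at 7 days. Stab1 was at 906, 540.3 and 273 CPM in PBS, 3-day WGP and 7-day WGP, and Timd4, a phosphatidylserine receptor of long-lived resident macrophages, at 95.2, 59.2 and 27.9 CPM. Gas6, the ligand that bridges dying cells to the Axl and Mertk kinases, was at 456, 379 and 170.0 CPM, whereas Mertk itself was at 52.5, 96.6 and 52.0 CPM and Axl at 169, 152 and 117 CPM. Igf1, a growth factor made by resident macrophages, was at 323, 292 and 85.0 CPM, and F13a1, a transglutaminase subunit of clotting, at 1013, 935 and 417 CPM. Selenop, the selenium carrier, was at 3443, 2557 and 1501 CPM, and Dab2, an endocytic adaptor, at 904, 607 and 340.0 CPM.

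Not every identity gene passed the threshold at 7 days. Maf was at 1148 CPM in PBS, 1238 CPM at 3 days and 662 CPM at 7 days, a log2 ratio at 7 days of −0.79 that did not reach the threshold. Ltc4s, which makes leukotriene C4, was at 327, 352 and 260.0 CPM. In Xist barcodes alone, 1 of the 19 rose and 0 fell at 3 days, with a median of 0.15, and 0 rose and 16 fell at 7 days, with a median of −1.44. For Cd163 the Xist levels were 267, 412 and 75.6 CPM, and for Fcna 279.6, 793 and 64.5 CPM, in PBS, 3-day WGP and 7-day WGP. The gene that rose in Xist barcodes at 3 days was Fcna.

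Rule genes are given as a description. Pf4, platelet factor 4, a chemokine also made by resident macrophages (ENSMUSG00000029373, chromosome 5, 90772435 to 90773383, plus strand), was at 2082 CPM in PBS, 1022 CPM at 3 days and 530.2 CPM at 7 days. Fcrls, an Fc receptor-like gene shared with microglia (ENSMUSG00000015852, chromosome 3, 87250758 to 87263738, minus strand), was at 682 CPM in PBS, 164 CPM at 3 days and 166 CPM at 7 days, with 291 CPM in Xist and 93.8 CPM in Y barcodes at 3 days. Mrc1 was at 1309.8, 1122 and 713 CPM, Folr2 at 718, 552 and 287 CPM and Lyve1 at 307, 401 and 97.7 CPM, with 871 CPM in Xist and 224 CPM in Y barcodes at 3 days. The limit on their sum sets a floor under these values, and a cell that lost them all would no longer be counted. At 3 days Pf4 and Fcrls lay past the 2-fold threshold below PBS, whereas Lyve1, Folr2 and Mrc1 were within 2-fold of it. At 7 days all 5 were below their PBS level. The 3-day log2 ratio of Pf4 in Xist barcodes alone was −0.75.

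Pf4 and Fcrls were the rule genes that lay at least 2-fold below PBS at 3 days. Saa3 and Clec4e ranked 1 and 3 among the 3-day rises of genes with a mean of at least 50 CPM, with Slpi between them. The 250 bases before the RefSeq start of these 4 genes are shown. They were taken from RefSeq on GRCm38.p6 and read 5′ to 3′ on the gene's strand: Pf4 at chr5:90772185-90772434, plus strand, Fcrls at chr3:87263525-87263774, minus strand, Saa3 at chr7:46715677-46715926, minus strand and Clec4e at chr6:123289872-123290121, minus strand. Capitals mark matches on either strand to the core of PU.1 sites (GAGGAA), the macrophage-defining factor, and to the C/EBP motif (TTNNGNAA), with none overlapping another. RefSeq and GENCODE place some starts differently: by the GENCODE positions given here, 214 bases of the Fcrls window and 24 bases of the Saa3 window lie inside the gene. The 250-base windows of 32851 promoters held the PU.1 core in 23.3% and the C/EBP motif in 36.8%.
Pf4: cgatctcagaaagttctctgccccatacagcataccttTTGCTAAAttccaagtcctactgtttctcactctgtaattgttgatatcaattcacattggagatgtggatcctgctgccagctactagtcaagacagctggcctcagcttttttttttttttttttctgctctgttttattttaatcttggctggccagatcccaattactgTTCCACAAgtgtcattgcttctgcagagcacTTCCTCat
Fcrls: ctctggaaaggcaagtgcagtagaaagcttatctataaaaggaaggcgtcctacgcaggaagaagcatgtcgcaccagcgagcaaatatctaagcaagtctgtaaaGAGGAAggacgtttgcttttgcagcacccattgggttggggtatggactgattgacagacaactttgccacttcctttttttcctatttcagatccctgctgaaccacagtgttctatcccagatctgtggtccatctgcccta
Saa3: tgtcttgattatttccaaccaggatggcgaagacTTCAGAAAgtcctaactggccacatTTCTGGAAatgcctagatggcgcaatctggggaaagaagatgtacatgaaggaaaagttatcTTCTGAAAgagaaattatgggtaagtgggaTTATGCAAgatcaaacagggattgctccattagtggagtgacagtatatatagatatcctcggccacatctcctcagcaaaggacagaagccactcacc
Clec4e: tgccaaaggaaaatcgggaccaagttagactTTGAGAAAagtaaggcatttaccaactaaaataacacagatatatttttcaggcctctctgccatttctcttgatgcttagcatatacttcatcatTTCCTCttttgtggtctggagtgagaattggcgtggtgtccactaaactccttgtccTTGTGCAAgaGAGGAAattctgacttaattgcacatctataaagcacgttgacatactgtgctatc
Pf4 had 1 PU.1 core, ending 3 bases before the start, and 2 C/EBP matches, and Fcrls had 1 PU.1 core. Saa3 had 4 C/EBP matches and no PU.1 core, and Clec4e 2 of each. A match is a run of letters and says nothing of whether a factor was bound.

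Members with and without Lyve1 differed in their other transcripts. In many organs, resident macrophages rich in Lyve1 lie along vessels and carry little MHC class II, and others lie near nerves and carry much. Counting all UMIs of a cell, 255 of 639 PBS members (39.9%) held a Lyve1 UMI, against 59 of 169 (34.9%) at 3 days and 14 of 71 (19.7%) at 7 days. After thinning each cell to 1000 UMIs the shares were 19.2%, 26.6% and 11.3%, highest at 3 days, so no order between PBS and 3 days is read from them. Lyve1 is a rule gene, and the split is a description. It was made on all UMIs, so it also depends on depth, with median depths with and without Lyve1 of 9711 and 10662 UMIs in PBS, 7964 and 12246.5 at 3 days and 7884.5 and 11039 at 7 days. The levels in each set were then taken after thinning. In PBS, H2-Aa, an MHC class II chain, was at 1933 CPM with Lyve1 and 5846 CPM without, and Ccr2, the chemokine receptor that brings monocytes from blood, at 35.3 and 836 CPM. The reverse held for Cd163, at 616 CPM with Lyve1 and 119.8 CPM without, for Timd4, at 204 and 20.8 CPM, and for Fcna, at 769 and 67.7 CPM. Retnla, at 1322 and 1971 CPM, and Apoe, the lipid carrier, at 16369 and 17891 CPM, differed less.

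**Figure D3:**
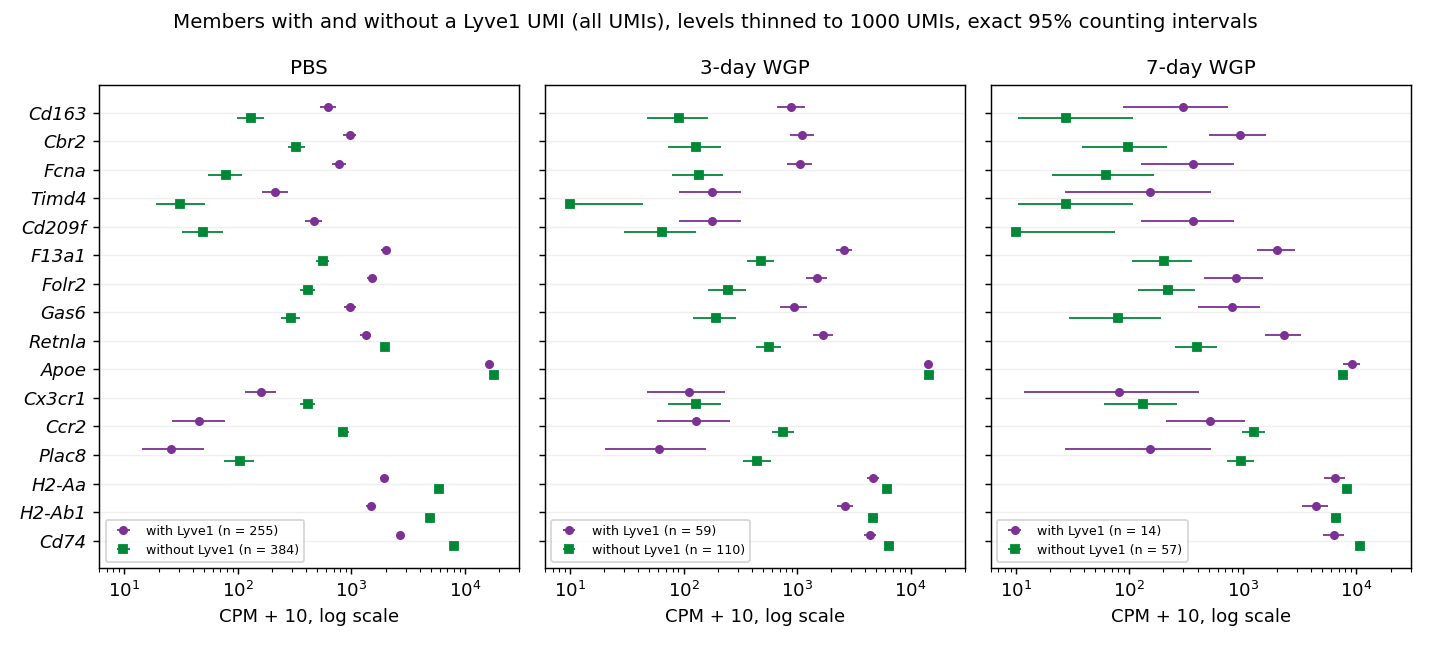
Levels (CPM + 10, log axis) of selected genes in members with and without a Lyve1 UMI among all their UMIs, the levels taken after thinning each cell to 1000 UMIs, in the PBS, 3-day WGP and 7-day WGP libraries, with exact 95% Poisson intervals for counting error. In PBS the MHC class II genes lie to the right in members without Lyve1 and Cd163, Timd4 and Fcna in members with it, and the gap in H2-Aa is smaller at 7 days, at 6429 CPM with and 8246 CPM without Lyve1.

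The class II level of the Lyve1 members differed between the libraries. H2-Aa in them was at 1933 CPM in PBS, 4627 CPM at 3 days and 6429 CPM at 7 days, and in their Xist barcodes alone at 1916, 3625 and 6714 CPM, over 250, 16 and 7 cells. Cd163 in them was at 616, 881 and 286 CPM, with 14 cells behind the last. Other identity genes differed from gene to gene in these cells. F13a1 was at 1996, 2576 and 2000 CPM, Gas6 at 969, 932 and 786 CPM and Fcna at 769, 1051 and 357 CPM. For H2-Aa the gap between members with and without Lyve1 was thus smaller at 7 days than in PBS, on few cells. Cd163 stayed apart, at 616 and 119.8 CPM with and without Lyve1 in PBS and 286 and 17.5 CPM at 7 days. Retnla was lower after WGP in the members without Lyve1, at 1971, 555 and 386 CPM, and not in those with it, at 1322, 1678 and 2286 CPM.

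How evenly a transcript was spread over the members differed from gene to gene. The 10% of members with the most Retnla held 97.4, 99.4 and 99.7% of its UMIs, and the 10% with the most Ccl8 held 92.7, 72.4 and 78.7% of Ccl8. For Lyz2, Selenop and Mrc1 the same share was 32.0, 31.7 and 25.5%, 31.9, 37.7 and 33.0% and 31.7, 35.0 and 35.1%, so that these were spread over nearly all members. Mrc1 is a rule gene, and the selection favours its presence in each member. Cd163 lay between, at 52.6, 63.5 and 75.5%. H2-Aa was the more even after WGP, with 39.95, 34.7 and 24.5% of its UMIs in 10% of the members.

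Most complement genes other than C1q did not pass the threshold. Of 10 tested, 1 rose and 0 fell at 3 days, and 1 rose and 1 fell at 7 days. Cfb, a protease of the alternative pathway, rose at both times, at 11.8 CPM in PBS, 55.6 CPM at 3 days and 69.8 CPM at 7 days. C4b was at 236, 309 and 153 CPM, though in 3-day Xist barcodes it was at 535 CPM and in Y barcodes at 261 CPM. The C1q chains, which the rule used, made up 1.38%, 0.971% and 0.930% of all member UMIs. Their mix was 36.6% C1qa, 37.0% C1qb and 26.4% C1qc in PBS, 36.8%, 35.5% and 27.6% at 3 days, and 31.6%, 43.2% and 25.2% at 7 days.

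Antigen presentation genes were higher at 7 days, mostly by less than the threshold. Of 10 tested, 1 rose and 0 fell at 3 days, and 1 rose and 0 fell at 7 days, with median log2 ratios of 0.10 and 0.74, and all 10 ratios at 7 days were above 0. H2-Aa was at 4403 CPM in PBS, 5689 CPM at 3 days and 7991 CPM at 7 days, H2-Ab1 at 3602, 4200.3 and 6681 CPM and Cd74, the invariant chain, at 6101, 6186 and 10148 CPM. The gene that rose at 7 days was Ciita, the class II transactivator, at 90.4 CPM in PBS, 109 CPM at 3 days and 197 CPM at 7 days. At 3 days it was Ctss, the protease that trims the invariant chain and is also counted among core macrophage genes, at 1741 CPM in PBS, 4302 CPM at 3 days and 2852 CPM at 7 days. In Xist barcodes neither passed, with log2 ratios of 0.52 for Ciita at 7 days and 0.15 for Ctss at 3 days. At 3 days H2-Ab1 was at 6076 CPM in Xist and 3583 CPM in Y barcodes, the latter close to the PBS level. In Xist barcodes alone H2-Ab1 was at 3584, 6076 and 5958 CPM in PBS, 3-day WGP and 7-day WGP.

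Most genes shared by macrophages in general stayed under the threshold. Of 18 tested, 1 rose and 2 fell at 3 days, and 0 rose and 3 fell at 7 days, with median log2 ratios of 0.02 and −0.24, against 1.18% of all tested genes that fell at 3 days and 2.57% at 7 days. Csf1r, the receptor for the macrophage growth factor, was at 1125 CPM in PBS, 816 CPM at 3 days and 644 CPM at 7 days, Adgre1, which encodes F4/80, at 529.5, 483 and 348 CPM, and Lyz2, lysozyme, at 16659, 18177 and 18599.7 CPM. Those that fell at 7 days were Apoe, at 16756, 13938 and 7115 CPM, the lipid-sensing receptor Trem2, at 367, 248 and 134 CPM, and the lysosomal tetraspanin Cd63, at 581, 756 and 219 CPM. The fractalkine receptor Cx3cr1 fell at 3 days, at 304 CPM in PBS, 102 CPM at 3 days and 162 CPM at 7 days, with 269 CPM in Xist and 56.4 CPM in Y barcodes.

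Pro-inflammatory mediators were higher in both WGP groups. Of 12 tested, 8 rose and 0 fell at 3 days, and 8 rose and 0 fell at 7 days, with median log2 ratios of 1.57 and 2.21, against 2.23% and 2.81% of all tested genes that rose. Il1b, the precursor of interleukin-1β, was at 23.2 CPM (19.8 to 27.0) in PBS, 227 CPM (206 to 249) at 3 days and 392 CPM (349 to 438) at 7 days, log2 ratios of 2.84 and 3.60. Acod1, which makes the antimicrobial metabolite itaconate, was at 1.42 CPM in PBS, 60.3 CPM at 3 days and 129 CPM at 7 days. Clec4e, also called Mincle, a C-type lectin that senses fungal glycolipids and dead cells (ENSMUSG00000030142, chromosome 6, 123281789 to 123289870, minus strand), was at 3.98 CPM in PBS, 152 CPM at 3 days and 190.3 CPM at 7 days, log2 ratios of 3.54 and 3.84. Ptgs2, the inducible cyclooxygenase, was at 5.69 CPM in PBS, 35.8 CPM at 3 days and 110.4 CPM at 7 days, and Sod2, the mitochondrial superoxide dismutase, at 65.6, 217 and 211 CPM. Tnf, at 21.5, 16.6 and 27.9 CPM, and Il18, at 31.0, 32.7 and 41.9 CPM, did not reach the threshold.

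At 7 days these levels held in Xist barcodes, and at 3 days they were mostly higher in Y than in Xist barcodes. In Xist barcodes alone 3 of 12 rose at 3 days, with a median of 0.33, and 7 at 7 days, with a median of 2.44. Il1b was at 23.2, 98.0 and 431 CPM in PBS, 3-day WGP and 7-day WGP Xist barcodes and at 244 CPM in 3-day Y barcodes. Clec4e was at 3.89, 8.40 and 259.8 CPM in Xist barcodes and at 214 CPM in 3-day Y barcodes. The 3-day ratios in Xist barcodes were 0.16 for Acod1, −0.22 for Ptgs2 and −0.39 for Sod2. After thinning to 1000 UMIs, a Clec4e UMI was seen in 0.469% of PBS, 7.10% of 3-day and 11.3% of 7-day members, against 0.0839%, 0.204% and 1.57% of B-cell barcodes. These transcripts were concentrated in few members. The 10% with the most held 89.7% of Il1b UMIs at 3 days and 71.5% at 7 days, 89.7% and 92.2% of Acod1, 80.5% and 82.7% of Clec4e, and 100% and 89.7% of Ptgs2, and the median member held 0 of each.

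Saa3, the acute-phase serum amyloid A made by macrophages (ENSMUSG00000040026, chromosome 7, 46711998 to 46715700, minus strand), had the largest rise at 3 days. It was at 2.70 CPM (1.63 to 4.22) in PBS, 2763 CPM (2689.6 to 2839) at 3 days and 159.8 CPM (133 to 190.3) at 7 days, log2 ratios of 7.77 and 3.74. At 3 days the 17 members with the most Saa3 held 96.4% of its UMIs, and the other members were at 115 CPM. Of those 17, 15 were Y and 0 were Xist barcodes. Saa3 stood at 72.8 CPM in Xist and 4127 CPM in Y barcodes at 3 days, and free RNA alone, as seen in barcodes of at most 100 UMIs and scaled by the acinar transcripts of B-cell barcodes, would give 71.1 CPM. That estimate can be too high for the members: it would give 912 CPM of the immunoglobulin chain Igkc at 3 days, where they held 95.6 CPM. Whether the Xist value of Saa3 was free RNA therefore cannot be told from it. Slpi, an inhibitor of neutrophil elastase, was at 1.99, 252 and 81.2 CPM, with 0 UMIs in 3-day Xist barcodes, which allows up to 8.40 CPM, 389 CPM in Y barcodes and 99.6% of its 3-day UMIs in 17 members.

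**Figure D4:**
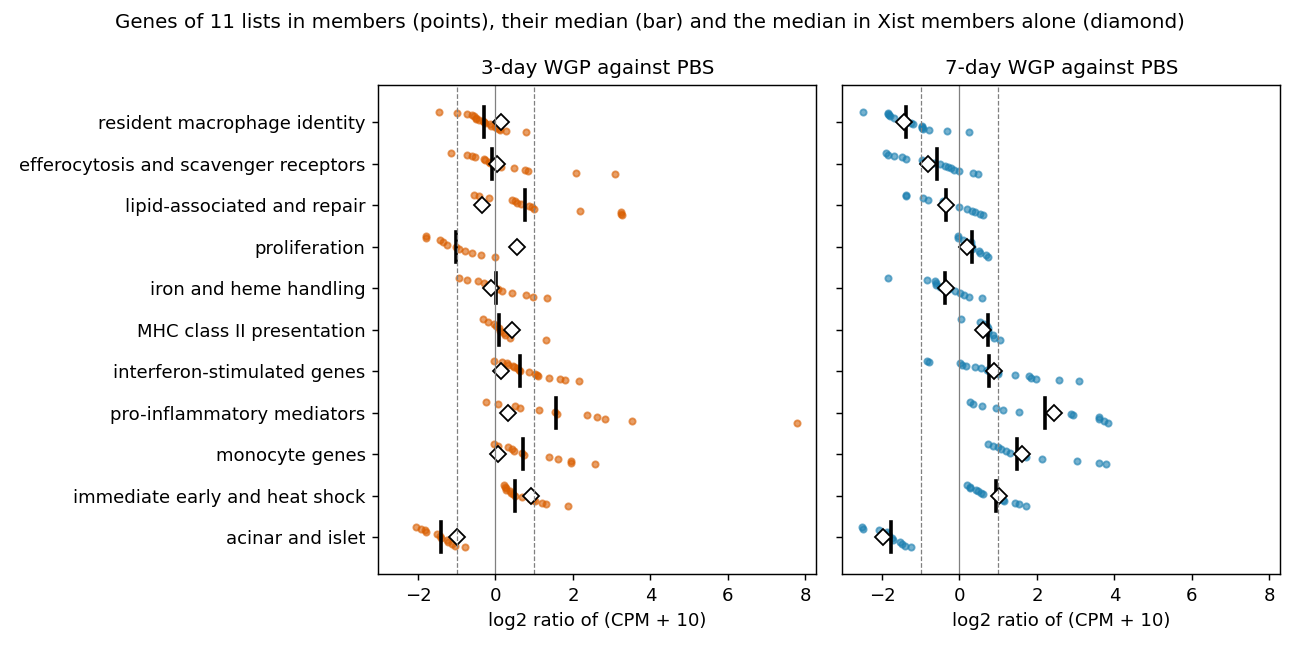
Each point is a gene's log2 ratio of (CPM + 10) in members against PBS at 3 days (left) and 7 days (right), by gene list, with the list's median as a bar and its median in Xist barcodes alone as a diamond. At 7 days the medians of inflammatory and monocyte genes lie to the right of 0 and those of identity and acinar genes to the left, and the diamond of the lipid-associated genes at 3 days, at −0.35, lies on the other side of 0 from the bar at 0.76.

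Of 14 lipid-handling and repair genes tested, 5 rose and 0 fell at 3 days, and 0 rose and 2 fell at 7 days, with median log2 ratios of 0.76 and −0.35. Fabp5, a fatty acid-binding protein, was at 196 CPM in PBS, 1980.4 CPM at 3 days and 249 CPM at 7 days, Fabp4 at 9.11, 172 and 19.0 CPM and Gpnmb, a glycoprotein of phagocytes loaded with lipid, at 49.0, 547 and 35.5 CPM. Spp1, osteopontin, was at 72.1 CPM in PBS, 366 CPM at 3 days and 21.6 CPM at 7 days, log2 ratios of 2.19 and −1.38. The fifth was the cholesterol exporter Abcg1, at 48.4, 107 and 57.1 CPM. Those that fell at 7 days were Trem2 and Spp1. The 7-day ratio of Spp1 was 0.64 with members above 10591 UMIs left out and 0.56 without the Arg1, Ccl5, Cxcl9 and Nos2 clauses, so its direction at 7 days rested on both choices. The limit of 10591 UMIs left out 300 of 639 PBS, 86 of 169 3-day and 34 of 71 7-day members.

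Between Xist and Y barcodes, the 3-day rise of these genes stood in the Y barcodes. The 43 members with neither kind of transcript and the 2 with both are outside this split. Of the 17 members with the most Spp1 at 3 days, 5 were among them. In Xist barcodes alone 0 rose and 6 of 14 fell at 3 days. Fabp5 was at 33.6 CPM in Xist and 2247 CPM in Y barcodes, and at 198 CPM in PBS Xist barcodes. Gpnmb was at 8.40 CPM in Xist and 609 CPM in Y barcodes, and Spp1 at 2.80 CPM in Xist and 488 CPM in Y barcodes. Ctsd, a lysosomal protease, was at 997 CPM in Xist and 3652 CPM in Y barcodes, and Fth1, the ferritin heavy chain, at 5770.2 CPM in Xist and 16105 CPM in Y barcodes. For these genes the Xist barcodes of the same library lay below the PBS level and the Y barcodes above it.

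**Figure D5:**
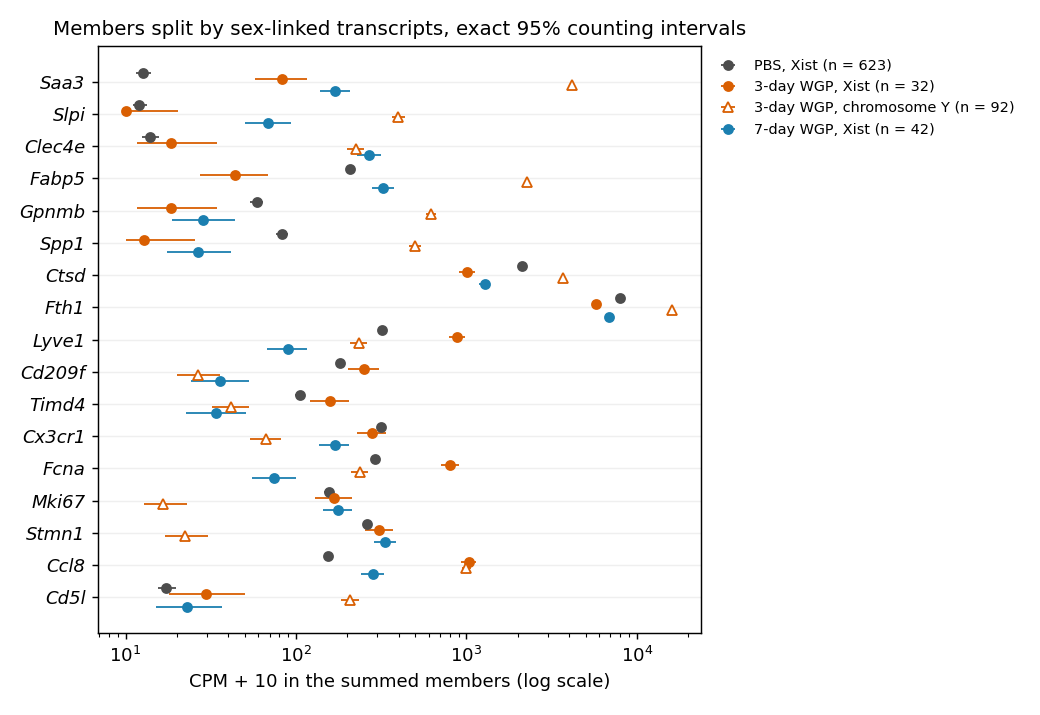
Levels (CPM + 10, log axis) in the summed members, split into Xist barcodes of PBS (n = 623), 3-day WGP (n = 32) and 7-day WGP (n = 42) and Y barcodes of 3-day WGP (n = 92), with exact 95% Poisson intervals for counting error. Saa3, Fabp5, Gpnmb and Spp1 lie far to the right in the 3-day Y barcodes, whereas for Mki67, Stmn1, Cd209f and Lyve1 the Y barcodes lie to the left of the 3-day Xist barcodes, and Ccl8 lies together in both at 1019.6 and 990.3 CPM.

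Chemokines differed from gene to gene. Of 13 tested, 4 rose and 1 fell at 3 days, and 5 rose and 2 fell at 7 days. Ccl8, which draws monocytes and eosinophils, was at 157 CPM (148 to 167) in PBS, 1100.3 CPM (1054 to 1148) at 3 days and 779 CPM (718 to 843) at 7 days, and Ccl6 at 879.9 CPM in PBS, 3571 CPM at 3 days and 2909 CPM at 7 days, log2 ratios at 3 days of 2.73 and 2.01. Both were also high in 3-day Xist barcodes, Ccl8 at 1019.6 CPM in Xist and 990.3 CPM in Y barcodes and Ccl6 at 2641 CPM in Xist and 3834 CPM in Y barcodes, against 145 and 869.6 CPM in PBS Xist barcodes. At 7 days Ccl8 was at 273 CPM in Xist and 1725 CPM in the 12 Y barcodes. Ccl24, an eosinophil attractant of alternatively activated macrophages, fell at both times, at 177 CPM in PBS, 62.9 CPM at 3 days and 64.7 CPM at 7 days. In Xist barcodes Ccl24 was at 177, 148 and 77.4 CPM, with a 3-day log2 ratio of −0.24, and in 3-day Y barcodes at 39.8 CPM. Cxcl10, induced by interferon-γ, rose at 7 days, at 20.9, 6.75 and 63.4 CPM, and Cxcl13, which draws B cells, fell at 7 days, at 35.0, 43.6 and 2.54 CPM.

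Of 17 interferon-stimulated genes tested, 7 rose and 0 fell at 3 days, and 7 rose and 0 fell at 7 days, against 2.23% and 2.81% of all tested genes that rose. Rsad2 passed at 3 days and not at 7 days. The examples given here were chosen from the list after their values were seen. The guanylate-binding protein Gbp2 was at 36.1 CPM in PBS, 194 CPM at 3 days and 382 CPM at 7 days, the GTPase Iigp1 at 34.7, 81.0 and 255 CPM and Irf1 at 44.5, 104 and 188 CPM. The antiviral genes Rsad2, at 26.2, 105 and 30.4 CPM, and Ifit1, at 28.0, 59.2 and 11.4 CPM, were highest at 3 days, and only Rsad2 of the pair passed the threshold. The 3-day log2 ratios in Xist barcodes were 0.06 for Rsad2, −0.01 for Ifit1 and 0.08 for Irf1, and Rsad2 stood at 28.0 CPM in Xist and 134 CPM in Y barcodes. Gbp2b, outside the list and among the 10 largest rises at 7 days, was at 4.55, 16.6 and 235 CPM. With only Xist barcodes, 3 rose at 3 days and 7 rose and 1 fell at 7 days. After thinning, a Gbp2 UMI was seen in 2.35%, 7.69% and 28.2% of members and in 1.93%, 2.25% and 10.4% of B-cell barcodes.

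Monocyte genes were higher in both WGP groups. Of 12 tested, 5 rose and 0 fell at 3 days, and 9 rose and 0 fell at 7 days, with median log2 ratios of 0.71 and 1.49. Their summed level, over all 15 of the list, was 2198, 4029 and 5934 CPM in PBS, 3-day WGP and 7-day WGP. Ly6c2, the surface marker of inflammatory monocytes, was at 14.9 CPM (12.2 to 18.1) in PBS, 85.7 CPM (73.1 to 99.8) at 3 days and 290.5 CPM (254 to 331) at 7 days. Plac8 was at 60.3 CPM in PBS, 406 CPM at 3 days and 951 CPM at 7 days, and the calcium-binding S100a4 and S100a6 at 441, 598 and 934 CPM and 547, 881 and 1357 CPM. Ccr2, at 527, 548 and 970.4 CPM, did not reach the threshold. In Xist barcodes alone 2 rose and 2 fell at 3 days, and 10 rose at 7 days.

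Ly6c2 was also seen in B-cell barcodes. After thinning, a Ly6c2 UMI was seen in 0.939%, 4.14% and 11.3% of members and in 6.54%, 18.3% and 7.72% of B-cell barcodes. The PBS and 3-day shares of members thus lay under those of B-cell barcodes. Whether B cells made Ly6c2 themselves was not tested, so their share is not taken as a background. Free RNA alone, estimated as for Saa3, would give 3.75 CPM in PBS and 4.64 CPM at 3 days. The members held 14.9 and 85.7 CPM. With members above 10591 UMIs left out, the 3-day log2 ratio of Ly6c2 was −0.53, against 1.94 over all members. Members with a Ly6c2 UMI numbered 26 of 639, 18 of 169 and 25 of 71. Without them 243 genes passed the threshold at 7 days, 146 higher and 97 lower, against 314 in all, which moved the share that rose from 52.2% to 60.1%. Their part in the 7-day levels was not tested further.

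Cell-cycle genes were lower at 3 days. Of 11 tested, 0 rose and 6 fell at 3 days, and 0 rose and 0 fell at 7 days, with median log2 ratios of −1.03 and 0.32. Mki67, which marks cycling cells, was at 144 CPM (135 to 153) in PBS, 34.3 CPM (26.5 to 43.6) at 3 days and 179 CPM (151 to 211) at 7 days, and Stmn1, a regulator of microtubules, at 248 CPM in PBS, 64.4 CPM at 3 days and 308 CPM at 7 days. The difference lay between the Xist and Y barcodes: Mki67 was at 157 CPM in Xist and 6.64 CPM in Y barcodes at 3 days and Stmn1 at 297 CPM in Xist and 12.5 CPM in Y barcodes, against 145 and 251 CPM in PBS Xist barcodes. Top2a was at 258 CPM in Xist and 2.49 CPM in Y barcodes. Among Xist barcodes 2 genes rose and 0 fell at 3 days. A Mki67 UMI was seen in 7.36%, 1.78% and 8.45% of members after thinning, and in 1.47%, 5.04% and 1.73% of B-cell barcodes, so that the 3-day share was under that of B-cell barcodes.

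Most transcription factors of the macrophage lineage did not pass the threshold. Of 18 tested, 5 rose and 0 fell at 3 days, and 4 rose and 0 fell at 7 days. Spi1, which encodes PU.1, was at 319.9, 294 and 318 CPM, Irf8 at 200.1, 199 and 226 CPM and Zeb2 at 921, 975 and 939.9 CPM. Cebpb, a C/EBP factor of inflammatory and emergency myeloid programmes, was at 328 CPM in PBS, 1070.2 CPM at 3 days and 1142 CPM at 7 days, log2 ratios of 1.68 and 1.77, with 840.3 CPM in Xist and 1141 CPM in Y barcodes at 3 days and 326 CPM in PBS Xist barcodes. Klf2, a factor that restrains myeloid activation, was at 434 CPM in PBS, 993 CPM at 3 days and 1019 CPM at 7 days, and the related Klf4 at 169.8, 362 and 252 CPM. Nr4a1, a nuclear receptor induced early after stimulation, was at 28.5, 96.1 and 119 CPM, and Hif1a, the oxygen-sensitive factor, at 67.3, 138 and 211 CPM.

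Immediate early genes respond within minutes and also to tissue digestion. Of 15 tested together with the heat shock genes, 4 rose and 0 fell at 3 days, and 6 rose and 0 fell at 7 days. Fos was at 646 CPM in PBS, 1613 CPM at 3 days and 1886 CPM at 7 days and Dusp1, a phosphatase that shuts off stress kinases, at 282 CPM in PBS, 1055 CPM at 3 days and 953 CPM at 7 days, with 1045 CPM in Xist and 1006 CPM in Y barcodes at 3 days. The heat shock genes Hspa1a, at 501, 666 and 698 CPM, and Hspa8, at 1695, 1973 and 2051 CPM, did not reach the threshold. The part of tissue handling in these levels was not tested.

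Genes of alternative activation moved in both directions. Of 13 tested, 2 rose and 2 fell at 3 days, and 2 rose and 4 fell at 7 days. Retnla fell at both times, at 1940.4 CPM in PBS, 695 CPM at 3 days and 786 CPM at 7 days, while Socs3, a brake on cytokine signalling, rose, at 32.3, 102 and 165 CPM. With members above 10591 UMIs left out, the 3-day log2 ratio of Retnla was 0.91 in place of −1.47. Its direction at 3 days thus rested on the deeper cells, 300 of 639 PBS and 86 of 169 3-day members. Its ratios in Xist barcodes were −0.78 at 3 days and −0.83 at 7 days, short of the threshold. Tgfb1 was at 162, 128 and 159.8 CPM and Il10ra at 115, 104 and 107 CPM.

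Of 16 genes of efferocytosis and scavenging tested, 2 rose and 1 fell at 3 days, and 0 rose and 5 fell at 7 days, with median log2 ratios of −0.10 and −0.59. Those that rose at 3 days were Cd5l, at 7.26, 138 and 14.0 CPM, and Marco, a receptor for unopsonised particles, at 12.0, 83.1 and 3.81 CPM. Marco stood at 5.60 CPM in Xist and 130.3 CPM in Y barcodes at 3 days, and both genes are also abundant in large peritoneal macrophages. Colec12, a scavenger lectin, fell at both times, at 59.9, 21.8 and 8.88 CPM. Among Xist barcodes 0 of the list passed the threshold at 3 days and 7 fell at 7 days.

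Most genes of glucan sensing stayed under the threshold. Of 14 on the list 11 were tested, and 2 rose and 0 fell at 3 days, and 1 rose and 0 fell at 7 days. The ratios of 10 of the 11 were above 0 at each time, with medians of 0.60 and 0.37, and the list summed to 3095, 3894 and 3898 CPM. Besides Clec4e, its neighbour and partner Clec4d rose at 3 days, at 23.8 CPM in PBS, 114 CPM at 3 days and 49.5 CPM at 7 days. Its 3-day level was 25.2 CPM in Xist and 156 CPM in Y barcodes, against 23.9 CPM in PBS Xist barcodes, a log2 ratio of 0.05. In Xist barcodes 0 of the list rose and 1 fell at 3 days, and 3 rose and 0 fell at 7 days. The kinase Syk was at 157, 229 and 186 CPM, Bcl10, an adaptor downstream of it, at 102, 98.7 and 88.8 CPM, and Itgam, the α chain of complement receptor 3, at 262, 425 and 317 CPM.

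Of 12 genes of iron and heme handling tested, 1 rose and 0 fell at 3 days, and 0 rose and 1 fell at 7 days. Tfrc, the transferrin receptor, rose at 3 days, at 27.2, 83.1 and 14.0 CPM, with 28.0 CPM in Xist and 101 CPM in Y barcodes at 3 days, so that the log2 ratio in Xist barcodes was 0.04. Hmox1, heme oxygenase, was at 173, 344 and 265 CPM. Of 7 growth factors and receptors tested, 0 rose and 0 fell at 3 days, and 0 rose and 2 fell at 7 days. They were Igf1, given above, and the vascular growth factor Vegfb, at 44.5, 21.3 and 12.7 CPM.

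Transcripts of acinar cells, which macrophages do not make, were present in the members and fell after WGP. Of 12 tested, 0 rose and 11 fell at 3 days, and 0 rose and 12 fell at 7 days. Clps, colipase, was at 459 CPM in PBS, 168 CPM at 3 days and 72.3 CPM at 7 days, and Cela2a, an elastase, at 111, 32.2 and 11.4 CPM. The 13 acinar genes summed to 1725 CPM (1694 to 1756) in PBS, 555 CPM (523 to 590.0) at 3 days and 368 CPM (327 to 413) at 7 days, and in Xist barcodes to 1727, 964 and 332 CPM. In B-cell barcodes of the same libraries the sums were 260.4, 123 and 99.9 CPM, and in C1q-positive barcodes that were not members 443, 111 and 140.4 CPM. An acinar UMI was seen in 95.3%, 82.8% and 76.1% of members, whose median depths were 10306, 10608 and 10502 UMIs. In B-cell barcodes it was seen in 39.2%, 39.6% and 33.1%, with median depths of 5287, 9742 and 6060 UMIs. The level in members was therefore above that of free RNA in B cells in each library, and whether it came from ingested cells, attached cells or droplets was not tested.

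Among the 10 largest rises and falls at each time were genes outside the lists. At 3 days Thbs1, thrombospondin, was at 10.7, 214 and 115 CPM, with 11.2 CPM in Xist and 249 CPM in Y barcodes. Pmepa1, a target and inhibitor of TGF-β signalling, was at 133, 15.1 and 31.7 CPM, and Gpr34, a lysophosphatidylserine receptor shared with microglia, at 135, 41.6 and 40.6 CPM, with a 3-day log2 ratio in Xist barcodes of −0.86. At 7 days Ly6a, or Sca-1, an interferon-inducible surface protein, was at 12.8, 89.9 and 440.2 CPM and AW112010 at 48.1, 274 and 647 CPM, with 67.2 CPM in 3-day Xist barcodes. Sult1a1, a sulfotransferase, was at 86.5, 57.1 and 14.0 CPM. S100a8, a neutrophil and monocyte protein, was at 9.96, 131 and 60.9 CPM, with 16.8 CPM in Xist and 198 CPM in Y barcodes at 3 days. Igkc, the immunoglobulin κ chain, was at 172, 95.6 and 17.8 CPM, and immunoglobulin RNA is also free in these libraries.

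Barcodes that missed membership by 1 clause show where the members ended. The 128 barcodes that held Arg1 at 3 days and met every other clause differed from the 169 members in genes the clause did not use. Saa3 was at 22978 CPM in them and 2763 CPM in the members, whereas Mgl2, a lectin of resident and alternatively activated cells, was at 5.0 and 254 CPM. Cd163 was at 10.5 and 217 CPM and Stab1 at 177 and 540.3 CPM. Fabp5 was at 1617 and 1980.4 CPM. Erythroid transcripts moved with the set: the haemoglobin genes Hba-a1 and Hbb-bs were at 571 and 943 CPM in it and at 7.79 and 27.0 CPM in the members, the largest gaps after Arg1 itself together with Hba-a2 and Hbb-bt. In the 29 such barcodes at 7 days Hbb-bs was at 11305 CPM, against 53.3 CPM in the members. The part of red cell RNA in these differences was not tested. Saa3, which the 3-day Y members held above the Xist members, was thus higher again in these barcodes, and Fabp5 was not.

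The 22 PBS barcodes with 2 or more large peritoneal macrophage genes differed in another way. Marco was at 1727 CPM in them and 12.0 CPM in the 639 PBS members, Timd4 at 951 and 95.2 CPM, and Cd5l at 618 and 7.26 CPM. H2-Aa was at 872 and 4403 CPM and Ccr2 at 3.43 and 527 CPM. The 32 barcodes kept out at 7 days by Ccl5, Cxcl9 and Nos2 had Cxcl10 at 649 CPM against 63.4 CPM in the members, Gbp2 at 808 against 382 CPM, and Cd163 at 1.94 against 67.2 CPM. All 3 sets were chosen by transcripts, so these values describe them and carry no test.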

How the data were processed

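Living CD45+ cells of mouse pancreas were measured as droplet single-cell 3′ libraries, 1 each for PBS, 3-day WGP and 7-day WGP. The authors made the deposited values, raw UMI counts per gene and barcode, with Cell Ranger 3.1.0 on mm10, per the labels' processing notes, and the matrices are unfiltered. From these counts, barcodes of at least 1000 UMIs and at most 30% mitochondrial UMIs were kept and the members selected. Member UMIs were summed per library and scaled to CPM. With 1 library per group no test was run. Genes with a mean of at least 20 CPM were compared as log2 ratios of (CPM + 10) with a 2-fold threshold. Intervals are 95%, exact Poisson for levels and exact binomial for shares, and cover counting error only. A count of 0 was taken to allow up to 3 counts. B-cell barcodes had at least 2 Cd79a UMIs and a Cd79b UMI.

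No doublet caller was used beyond the rule's bar on Cd79a and Cd3, and leaving out the highest Scrublet scores, at 0.8% per 1000 barcodes, was an alternative. Other alternatives were other UMI, mitochondrial, ribosomal and upper limits, doubled rule thresholds, clauses dropped, shared barcodes left out, Xist barcodes alone, TMM and median-of-ratios scaling, a pseudocount of 1 CPM, no minimum level, means over cells and free RNA subtraction. Leaving out members with a Ly6c2 UMI was added after seeing the data. The members, the gene lists and the comparisons were chosen with earlier results of these data known. Named genes are those of the lists with a mean of at least 20 CPM, the 10 largest rises and falls at each time among genes of at least 50 CPM, and the 15 genes that most set members apart. Some listed genes are counted but not reported here by name. Gene positions are from GENCODE on GRCm38, the mm10 assembly. Python 3.11.15, scipy 1.17.1, scanpy 1.11.5 and edgeR 4.0.16 (TMM factors alone) were used.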

Additional observations from a re-analysis of the deposited data

Results flagged for a closer look

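Spp1 moved in opposite directions at the 2 times. Its log2 ratio of (CPM + 10) in the members was 2.19 at 3 days and −1.38 at 7 days against the same PBS library, and the difference was not tested, since each time is 1 library. At 3 days 17 of the 169 members held 88.2% of its UMIs, and in PBS 64 of 639 held 92.5%. The 3-day Xist barcodes were at 2.80 CPM and the Y barcodes at 488 CPM. The 7-day ratio changed sign in some settings, to 0.64 with members above 10591 UMIs left out and to 0.56 without the Arg1, Ccl5, Cxcl9 and Nos2 clauses, and the 3-day ratio was −2.69 in Xist barcodes alone.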

How the results depend on the processing

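Single genes had 218 log2 ratios, 1 per gene and time, under 16 alternatives. Of these values 3266 were counted as the same, 207 gained or lost a call, and 15 calls past the threshold changed sign. Ratios under the threshold that changed sign are counted among the 3266. An example is Cd163 at 3 days, negative over all members and 0.61 in Xist barcodes. In Xist barcodes alone the 3-day ratios became −0.30 for Fabp4, −2.26 for Fabp5, −1.68 for Gpnmb, −0.50 for Marco, 0.10 for Mki67, −0.22 for Ptgs2, −0.27 for Slpi, −0.39 for Sod2, −2.69 for Spp1 and 0.23 for Stmn1. With barcodes above 10591 UMIs left out, the 3-day ratios became −0.53 for Ly6c2 and 0.91 for Retnla, and the 7-day ratios −0.48 for S100a8 and 0.64 for Spp1. That limit lay near the median depth of the members and left out 300 of 639 PBS, 86 of 169 3-day and 34 of 71 7-day members. Without the Arg1, Ccl5, Cxcl9 and Nos2 clauses the 7-day ratio of Spp1 was 0.56, and the log2 ratios of the member share were −0.81 at 3 days and −1.40 at 7 days. The 3-day share ratio was −2.19 in Xist barcodes and −1.50 among C1q-positive barcodes, and the 7-day ratio was −3.35 with doubled thresholds. The 3-day count of 199 genes past the threshold became 484 (296 higher, 188 lower) without those clauses and 339 (200 higher, 139 lower) with a pseudocount of 1 CPM, and the 7-day count of 314 ranged from 243 to 467. The cause was not tested. No paired analysis was possible because each group is 1 library, and no replicate could be left out. The 7-day levels rest on 71 cells, where 1 UMI is 1.27 CPM.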
